A study of Solanum lycopersicum with 10 samples.

Results

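The auxin response factor (ARF) genes and the Aux/IAA genes of tomato (Solanum lycopersicum) were followed through fruit skin, fruit flesh and leaf. The set was a fixed list of 40 identifiers, 19 for ARF genes and 21 for Aux/IAA genes, matched to the part of each identifier before the dot, and all 40 were found among the 35288 genes listed. Poly(A) RNA was sequenced from 5 tissues of one cultivar, spelled Alisa Craig in the sample labels and Ailsa Craig in the paper, with 2 libraries per tissue and 10 in all. The tissues were red ripe exocarp, mature green exocarp, red ripe mesocarp, mature green mesocarp and leaf, where the exocarp is the skin of the fruit, the mesocarp is the flesh beneath it, and the leaf sample was pooled from plants at both fruit stages. The sample labels name no transgene and no treatment, and the paper calls the replicates biological. The files give no gene symbols for the identifiers, so each gene is called by its identifier and its family alone.

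Auxin is the plant hormone that sets cell division and expansion in the young fruit, and a decline of auxin is known to accompany the onset of ripening in tomato. ARF proteins bind DNA in front of auxin-responsive genes, and each acts as an activator or as a repressor of transcription. Aux/IAA proteins bind to ARF proteins and hold those genes in check, until auxin joins them to the TIR1/AFB receptors and they are degraded. Many Aux/IAA genes are themselves rapidly induced by auxin, so the family is both a brake on the response and a common readout of it.

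Total counts ranged from 30945619 to 45637676 per library. Of the 35288 genes, 22801 passed the filter on low counts, among them 18 of 19 ARF genes and 21 of 21 Aux/IAA genes. The ARF gene Solyc10g086130.3 had 0 counts in each of the 10 libraries and was not tested. The summed FPKM of 12 genes that the study had picked on these libraries as exocarp-preferential was 1865 and 1181 in red ripe exocarp against 26.9 and 21.0 in red ripe mesocarp. In green fruit it was 8025 and 8771 in mature green exocarp against 239 and 230.4 in mature green mesocarp. All 12 separated the layers at both stages, which is no independent check of the labels since they were chosen for it. The replicates of mature green exocarp lay furthest apart, with 417 of 11630 genes (3.59%) differing at least 2-fold between them against 0.0374% to 0.737% of genes in the other tissues. Only genes averaging 10 CPM or more in the tissue entered these shares. In mature green exocarp 22 ARF and Aux/IAA genes reached that level, and Solyc06g053840.3 and Solyc03g120500.4 were the 2 that differed so far. Below it, Solyc09g083280.3 and Solyc09g083290.3 also differed at least 2-fold there.

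Levels were first compared between genes in FPKM, that is fragment counts corrected for transcript length and for library size, the only deposited scale on which genes of different length can be set side by side. The sum over the ARF genes was 416.2 ± 2.55 in red ripe exocarp, 498.4 ± 37.5 in mature green exocarp, 370.7 ± 2.83 in red ripe mesocarp, 423.9 ± 5.80 in mature green mesocarp and 449 ± 4.03 in leaf (SD, n = 2 each). The Aux/IAA sum was 311.2 ± 13 in red ripe exocarp, 398.6 ± 53.0 in mature green exocarp, 452.3 ± 1.98 in red ripe mesocarp, 549.2 ± 5.59 in mature green mesocarp and 566.2 ± 12 in leaf (SD, n = 2 each). FPKM does not correct for differences in RNA composition between tissues. When each library was divided by its TMM factor, a scaling by the bulk of the genes, the ARF sum became higher in red ripe exocarp (467.5) than in mature green exocarp (447.7) and higher in red ripe mesocarp (402.3) than in mature green mesocarp (350.6), so the order of its means between the stages turned round. On both scales the ARF sum was higher in exocarp than in mesocarp of the same stage, the Aux/IAA sum was lower in exocarp than in mesocarp of the same stage, and the Aux/IAA sum was highest in leaf. In red fruit the Aux/IAA difference lay largely in a single gene, Solyc09g065850.4, with 59.1 FPKM in exocarp against 188.9 in mesocarp. The median Aux/IAA gene of red fruit went the other way, at 1.17 FPKM in exocarp against 0.565 in mesocarp. The stage order of the Aux/IAA means in mesocarp turned round as well. As deposited it was 452.3 in red against 549.2 in green tissue, and on the TMM scale 490.9 against 454.3. The scaled mesocarp libraries did not overlap (495.2 and 486.6 in red against 452.5 and 456.1 in green). In exocarp the libraries of the stages overlapped on the TMM scale. The Aux/IAA sum was 335.6 and 363.6 in red ripe exocarp against 385.8 and 330.1 in mature green exocarp. The ARF sum was 460.5 and 474.4 in red ripe exocarp against 464.5 and 431.3 in mature green exocarp. In whole-tissue samples, fewer cells of a type and less RNA per cell cannot be told apart.

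**Figure D1:**
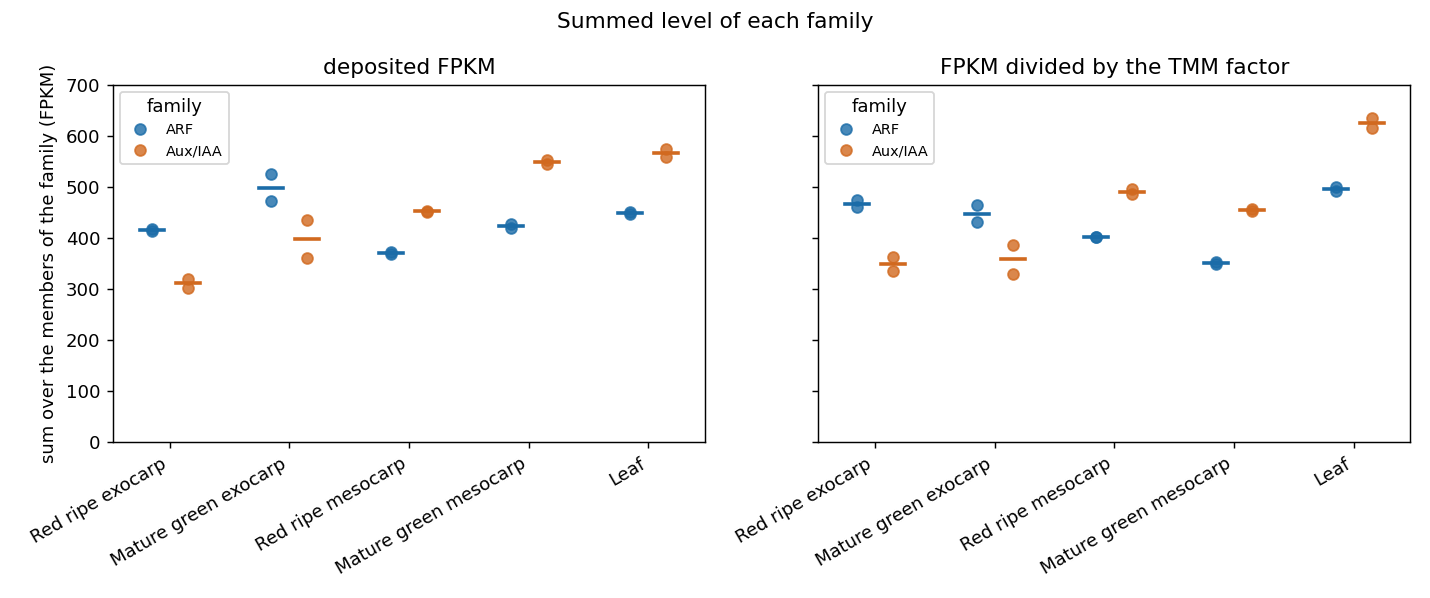
Sum of FPKM over the ARF genes and over the Aux/IAA genes (vertical axis, FPKM) in the 5 tissues, as deposited on the left and divided by each library's TMM factor on the right; points are the 2 libraries of a tissue and bars their mean. The Aux/IAA sum is highest in leaf in both panels (566.2 as deposited, 624.7 after scaling). The order of the ARF sums changes between the panels, and so does the order of the Aux/IAA sums of red ripe and mature green mesocarp.

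A few genes made up most of each sum. The ARF gene Solyc03g118290.3 accounted for 39.1% and 41.9% of the ARF total in the libraries of red ripe exocarp against 8.09% and 7.44% in mature green exocarp, and for 51.6% in both libraries of red ripe mesocarp against 14.3% and 14.5% in mature green mesocarp. It thus changed from a minor share of the family in green fruit to the largest single share in red fruit. Without it, the ARF sum was 247.8 FPKM in red ripe exocarp against 459.6 in mature green exocarp, while the flesh had 179.5 in red ripe mesocarp against 362.9 in mature green mesocarp. The Aux/IAA gene Solyc04g076850.3 took 36.2% to 48.7% of its family's total in exocarp, 26.7% to 31.9% in mesocarp and 12% to 12.3% in leaf.

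The families differed in how evenly their members were expressed. Between 16 and 17 of the 19 ARF genes exceeded 1 FPKM in every library, and the median ARF gene stood at 10.3 FPKM in red ripe exocarp, 15.2 in mature green exocarp, 6.87 in red ripe mesocarp, 10.6 in mature green mesocarp and 12.4 in leaf (means of the 2 libraries). Of the 21 Aux/IAA genes, 10 to 12 exceeded 1 FPKM in the red ripe libraries, 12 to 14 in the mature green libraries and 17 to 18 in leaf. The median Aux/IAA gene stood at 1.17 FPKM in red ripe exocarp, 4.47 in mature green exocarp, 0.565 in red ripe mesocarp, 3.54 in mature green mesocarp and 13.8 in leaf. The number of Aux/IAA genes above that level was thus lowest in red fruit and highest in leaf. By mean FPKM, 10 of 21 Aux/IAA genes (47.6%) and 4 of 18 ARF genes (22.2%) had their highest level in leaf, against 28.9% of all genes tested. In scaled CPM these shares were 52.4% and 33.3%, against 33.4% of all genes, so the ARF share lay below the background in FPKM alone. The Aux/IAA share includes Solyc12g096980.3, Solyc06g008580.3, Solyc03g120380.3 and Solyc09g083290.3, which passed the filter through leaf alone. Leaf as their highest tissue was thus fixed beforehand. The share without them was not computed, so its excess over the background cannot be read as a trait of the family. The mature green exocarp was the tissue of highest mean FPKM for 8 ARF genes (44.4%) and 3 Aux/IAA genes (14.3%), against 19.7% of all genes. In scaled CPM it was highest for 7 ARF genes (38.9%) and 3 Aux/IAA genes (14.3%), against 17.8% of all genes.

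**Figure D2:**
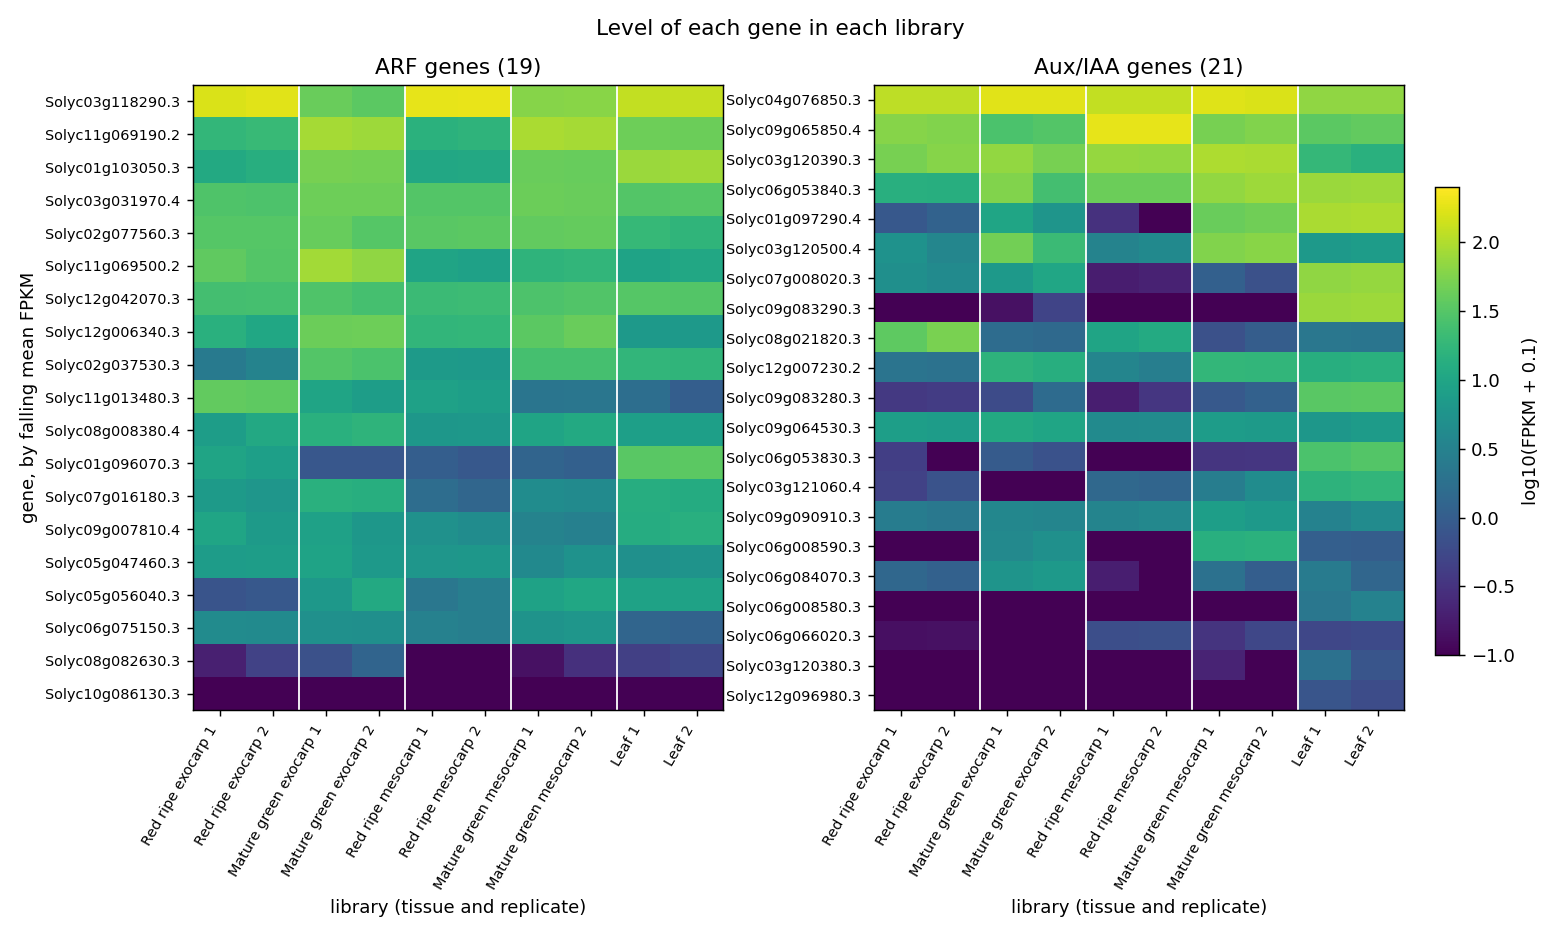
Level of each ARF gene (left, 19 rows) and each Aux/IAA gene (right, 21 rows) in each of the 10 libraries, as log10(FPKM + 0.1) by colour, with genes ordered by falling mean. Most ARF rows stay bright across the 5 tissues, whereas many Aux/IAA rows are dark in the fruit and bright in leaf, and Solyc10g086130.3 is at 0 in every library.

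In FPKM, the ARF genes with the highest means over the tissues were Solyc03g118290.3 (116.8), Solyc11g069190.2 (50.6), Solyc01g103050.3 (38.9) and Solyc03g031970.4 (35.5). They peaked in different tissues. Solyc03g118290.3 was highest in red fruit, with 162 and 175 FPKM in red ripe exocarp and 190.2 and 192 in red ripe mesocarp. Solyc11g069190.2 was highest in green fruit, with 88.6 and 78.8 FPKM in mature green exocarp and 93.6 and 87.3 in mature green mesocarp. Solyc01g103050.3 was highest in leaf at 78.1 and 83.4 FPKM, and Solyc03g031970.4 stayed between 27.7 and 45.2 FPKM in all 10 libraries.

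The Aux/IAA genes with the highest mean FPKM were Solyc04g076850.3 (129.7), Solyc09g065850.4 (73.6), Solyc03g120390.3 (59.7) and Solyc06g053840.3 (50.3). Solyc04g076850.3 had 116 and 116 FPKM in red ripe exocarp, 175 and 176 in mature green exocarp, 121 in both libraries of red ripe mesocarp, 174 and 161 in mature green mesocarp and 68.5 and 68.9 in leaf. It was thus the most abundant Aux/IAA gene in each fruit library except those of red ripe mesocarp, where Solyc09g065850.4 reached 190.3 and 187 FPKM. FPKM carries no correction for RNA composition. In scaled CPM, Solyc04g076850.3 had 269 and 266 in red ripe against 285 and 266 in mature green mesocarp. In exocarp it had 257 and 260 CPM in red ripe against 307 and 320 in mature green tissue. Solyc03g120390.3 ranged from 49.6 to 96.3 FPKM in fruit and stood at 18.0 and 14.4 in leaf.

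For tests between tissues, counts were scaled to CPM, reads of a gene relative to the TMM-scaled size of the library, and compared by edgeR's quasi-likelihood method in a single model of all 10 libraries. P-values were adjusted over the 22801 genes by the Benjamini-Hochberg method, and a gene was called at an adjusted p under 0.05. Log2 fold changes are given with their standard errors (SE).

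Red ripe against mature green tissue addresses ripening within each layer. In exocarp, 3 ARF genes were called higher and 8 lower in red fruit, and in mesocarp 4 were called higher and 9 lower, of 18 tested. Of the 21 Aux/IAA genes, 4 were called higher and 9 lower in exocarp, and 2 higher and 11 lower in mesocarp. These make 61.5% of the 39 genes in exocarp and 66.7% in mesocarp, beside 61.9% (29.7% higher, 32.2% lower) and 60.1% (28.2% higher, 31.8% lower) of all genes tested, so the share called was near the background. The median log2 fold change was -0.35 in exocarp and -0.40 in mesocarp for the ARF genes, and -0.28 and -0.65 for the Aux/IAA genes, against 0 and -0.02 for all genes. Leaving out the Aux/IAA genes with no fold, at or under 3 counts in each library of both stages (4 in exocarp, 3 in mesocarp), and setting those at 0 counts in one stage to the bound that 3 counts per library give, the medians were -1.24 over 17 genes in exocarp and -0.86 over 18 in mesocarp. In the mesocarp median Solyc03g120380.3 entered as a rise, although it had 0 counts in red and 4 and 0 in green tissue. Its bound for a fall was 0.642-fold, so -0.86 understates the fall. Both layers together, which share no library, had 7 ARF genes lower in both and 2 higher in both, and 7 Aux/IAA genes lower in both, 2 higher in both and 1 called in opposite directions. That is 35.9% of the 39 genes lower in both layers and 10.3% higher in both, against 23.6% and 22.4% of all genes. Without the first replicate of mature green exocarp, 7 in place of 3 ARF genes were called higher in red exocarp, and the 11 Aux/IAA genes lower in red mesocarp fell to 6 without replicate 1 of red ripe mesocarp, to 7 without its replicate 2 and to 7 without replicate 2 of mature green mesocarp.

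Among the ARF genes, Solyc03g118290.3 and Solyc11g013480.3 rose with ripening in both layers. Solyc03g118290.3 had 561 and 613 CPM in red ripe exocarp against 116 and 99.6 CPM in mature green exocarp, and 659 and 657 CPM in red ripe mesocarp against 153 and 159.7 CPM in mature green mesocarp. Every red library thus exceeded every green one, with log2 fold changes of 2.44 (SE 0.09, edgeR adjusted p = 1.44e-07) in exocarp and 2.07 (SE 0.09, edgeR adjusted p = 3.79e-07) in mesocarp. Solyc11g013480.3 had 46.2 and 44.7 CPM in red ripe exocarp against 9.38 and 7.81 CPM in mature green exocarp, a log2 fold change of 2.4 (SE 0.20, edgeR adjusted p = 1.04e-05). In mesocarp it was lower at both stages, with 10.9 and 9.55 CPM in red and 1.85 and 1.92 CPM in green tissue, but its log2 fold change of 2.44 (SE 0.22, edgeR adjusted p = 2.04e-05) was of the same size.

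The ARF genes Solyc05g056040.3, Solyc02g037530.3 and Solyc11g069190.2 fell with ripening in both layers. Solyc05g056040.3 had 2.03 and 2.33 CPM in red ripe exocarp against 15.1 and 28.5 CPM in mature green exocarp, a log2 fold change of -3.32 (SE 0.31, edgeR adjusted p = 2.23e-05). Solyc02g037530.3 had 9.48 and 12.8 CPM in red ripe exocarp against 95.3 and 86.4 CPM in mature green exocarp, a log2 fold change of -3.03 (SE 0.13, edgeR adjusted p = 2.72e-07). Solyc11g069190.2 had 44.2 and 47.7 CPM in red ripe mesocarp against 205 and 192 CPM in mature green mesocarp, a log2 fold change of -2.11 (SE 0.08, edgeR adjusted p = 1.86e-07), beside -1.85 (SE 0.08) in exocarp. In each of these contrasts the stages did not overlap. Solyc01g103050.3 fell by 1.65 on the log2 scale in exocarp and by 1.47 in mesocarp, Solyc12g006340.3 by 1.49 and 0.70, Solyc07g016180.3 by 0.77 and 1.19, and Solyc11g069500.2 by 0.87 and 0.47. The mesocarp call of Solyc11g069500.2 was lost without replicate 2 of red ripe mesocarp (log2 fold change -0.38, edgeR adjusted p = 0.0934) or replicate 2 of mature green mesocarp (-0.41, edgeR adjusted p = 0.0711).

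Several ARF genes were called in one layer only. Solyc01g096070.3 had 34.4 and 29.7 CPM in red ripe exocarp against 2.14 and 2.17 CPM in mature green exocarp, the largest rise of an ARF gene in that layer, with a log2 fold change of 3.89 (SE 0.13, edgeR adjusted p = 7.88e-08). Its mesocarp levels were 3.35 and 2.70 CPM in red against 3.07 and 2.69 CPM in green tissue, which overlap (log2 fold change 0.08, SE 0.14, edgeR adjusted p = 0.669). In mesocarp alone, Solyc09g007810.4 (log2 fold change 1.08) and Solyc05g047460.3 (0.78) were called higher, and Solyc06g075150.3 (-0.55) and Solyc08g082630.3 were called lower. The call of Solyc05g047460.3 was lost with total counts (0.39, edgeR adjusted p = 0.0827) and with limma on FPKM. Solyc08g082630.3 had 0 counts in both red ripe mesocarp libraries against 4 and 19 counts in mature green mesocarp, at least 3.72-fold lower, and its call was lost without either red ripe mesocarp library (edgeR adjusted p = 0.0868 and 0.0669) or replicate 2 of mature green mesocarp (0.107). Solyc03g031970.4 was called lower in exocarp alone (log2 fold change -0.34, SE 0.06, edgeR adjusted p = 0.000872). Solyc12g042070.3, Solyc02g077560.3 and Solyc08g008380.4 passed the threshold in neither layer, with log2 fold changes between -0.36 and 0.24.

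Among the Aux/IAA genes, Solyc06g008590.3 was detected in green fruit but not in red fruit. It had 0 counts in all 4 red ripe libraries against 157 and 201 counts (3.62 and 4.80 CPM) in mature green exocarp and 444 and 477 counts (11.7 and 12.7 CPM) in mature green mesocarp. Against a floor of 3 counts per library, this is at least 48.8-fold lower in red ripe exocarp (edgeR adjusted p = 1.14e-05) and at least 148-fold lower in red ripe mesocarp (edgeR adjusted p = 5e-06), a floor that covers counting error only. Solyc01g097290.4 had 1.03 and 1.46 CPM in red ripe exocarp against 10.2 and 6.31 CPM in mature green exocarp, a log2 fold change of -2.72 (SE 0.37, edgeR adjusted p = 0.000244). In mesocarp it had 0.287 and 0 CPM (12 and 0 counts) in red against 41.0 and 44.5 CPM in green tissue. The fitted log2 fold change there was -8.02 (SE 0.48, edgeR adjusted p = 1.98e-06), and it was -13.59 without the red ripe mesocarp library that held the 12 counts and -7.18 without the other.

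Further Aux/IAA genes that fell in both layers were Solyc12g007230.2, with log2 fold changes of -2.62 in exocarp and -2.06 in mesocarp, and Solyc03g120500.4, with -2.61 and -3.62. Solyc03g120500.4 was 1 of the genes with unequal mature green exocarp replicates, at 57.2 and 25.5 CPM, against 8.07 and 5.48 CPM in red ripe exocarp. Without replicate 1 of mature green exocarp its log2 fold change in that layer was -1.92 (edgeR adjusted p = 2.34e-05). The calls of Solyc09g083280.3, Solyc06g084070.3 and Solyc07g008020.3, the other members lower in both layers, depended on single libraries. Solyc09g083280.3 (log2 fold change -1.36, edgeR adjusted p = 0.0485) came to -0.39 without replicate 2 of mature green exocarp, and Solyc07g008020.3 (-0.61, edgeR adjusted p = 0.0424) to -0.25, and both calls were also lost without other single libraries. Solyc06g084070.3 (-2.08, edgeR adjusted p = 0.00958) lost its call without replicate 2 of red ripe exocarp (-1.96, edgeR adjusted p = 0.0529). In mesocarp the log2 fold changes of these genes were -1.99, -3.98 and -2.46 in the same order of naming. The mesocarp call of Solyc09g083280.3 was lost without replicate 1 of red ripe mesocarp (-1.44, edgeR adjusted p = 0.134) or replicate 2 of mature green mesocarp (-1.76, edgeR adjusted p = 0.0871), and the value was -2.65 without replicate 2 of red ripe mesocarp. The mesocarp value of Solyc06g084070.3 came to -8 without replicate 1 and -3.15 without replicate 2 of red ripe mesocarp.

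Only 2 Aux/IAA genes were called higher in red fruit of both layers. Solyc08g021820.3 had 36.9 and 53.1 CPM in red ripe exocarp against 1.20 and 1.17 CPM in mature green exocarp, a log2 fold change of 5.24 (SE 0.25, edgeR adjusted p = 4.47e-07). In mesocarp it had 9.76 and 11.8 CPM in red against 0.449 and 0.693 CPM in green tissue, a log2 fold change of 4.23 (SE 0.27, edgeR adjusted p = 2.66e-06). It was near 1 CPM or below in green fruit and became one of the more abundant Aux/IAA genes of red exocarp, at 36.1 and 51.4 FPKM. Solyc09g065850.4 had 75.6 and 71.3 CPM in red ripe exocarp against 27.0 and 31.2 CPM in mature green exocarp (log2 fold change 1.34, SE 0.10, edgeR adjusted p = 5.07e-06). Its mesocarp levels were 235 and 229 CPM in red against 46.5 and 52.8 CPM in green tissue (log2 fold change 2.22, SE 0.10, edgeR adjusted p = 3.61e-07).

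**Figure D3:**
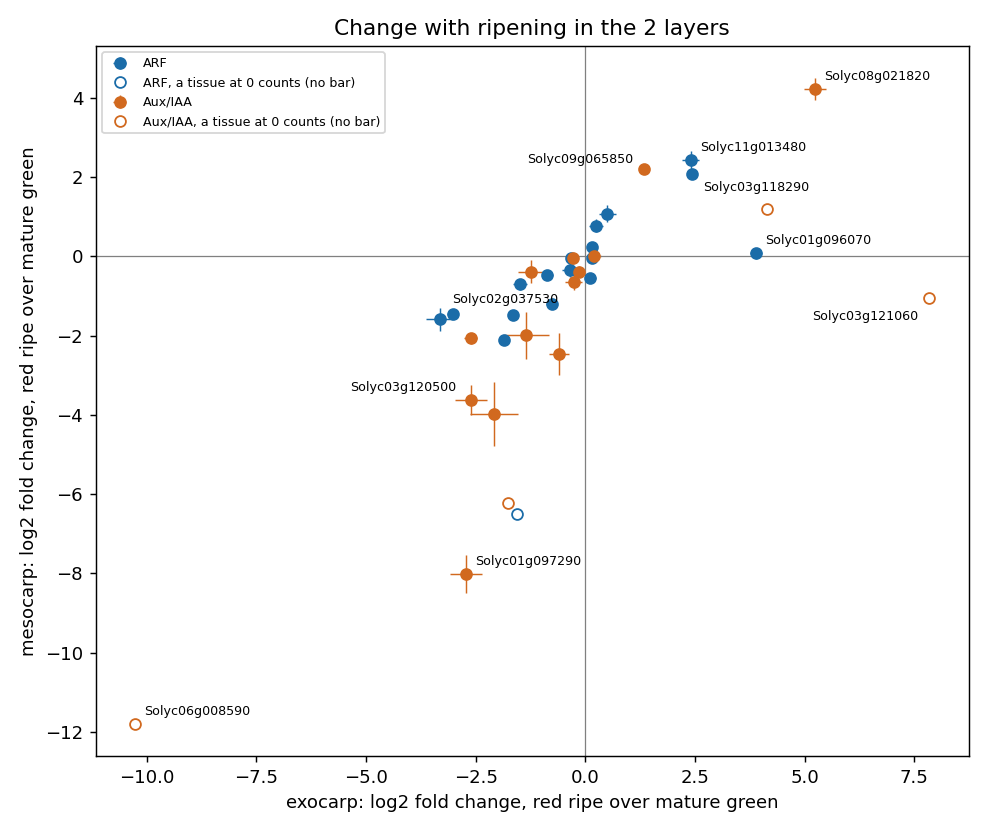
Log2 fold change of red ripe over mature green tissue in exocarp (horizontal axis) and in mesocarp (vertical axis) for ARF and Aux/IAA genes, with bars of 1 SE; open symbols had 0 counts in a tissue, so their fitted position is not a bound, and 4 Aux/IAA genes with 0 counts at both stages of a layer are not drawn. Solyc08g021820 (5.24 and 4.23) lies at the upper right, Solyc06g008590 at the lower left, and Solyc01g096070 and Solyc03g121060 lie to the right with mesocarp values of 0.08 and -1.06.

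The remaining Aux/IAA genes gave smaller or single-layer changes. Solyc03g121060.4 was called in opposite directions. It had 19 and 35 counts in red ripe exocarp against 0 counts in both mature green exocarp libraries, at least 11-fold higher, and 1.99 and 1.77 CPM in red ripe mesocarp against 2.93 and 4.93 CPM in mature green mesocarp (log2 fold change -1.06, SE 0.31, edgeR adjusted p = 0.0207). The mesocarp call was lost without replicate 1 (-1.15, edgeR adjusted p = 0.0718) or 2 (-0.97, edgeR adjusted p = 0.105) of red ripe mesocarp or replicate 2 of mature green mesocarp (-0.64, edgeR adjusted p = 0.14). In exocarp alone, Solyc06g053840.3 (-1.24) and Solyc04g076850.3 (-0.28) were called lower. The call of Solyc04g076850.3 was lost with the compared tissues alone in the fit (-0.26, edgeR adjusted p = 0.0668). Solyc06g053840.3 had unequal mature green exocarp replicates of 60.3 and 27.2 CPM, and its log2 fold change was -0.55 without the first of them (edgeR adjusted p = 0.000656). Solyc06g066020.3 was called higher there on 2 and 2 counts in red against 0 and 0 counts in green tissue, which gives no fold. In mesocarp alone, Solyc09g064530.3 (-0.38), Solyc09g090910.3 (-0.65) and Solyc06g053830.3 were called lower, the last on 0 counts in red against 9 and 10 counts in green tissue. The calls of Solyc06g066020.3, Solyc09g064530.3, Solyc09g090910.3 and Solyc06g053830.3 were each lost without any 1 of 3 or more single libraries. Solyc03g120390.3 did not pass in either layer (log2 fold changes 0.20 and 0.02), and Solyc12g096980.3, Solyc06g008580.3, Solyc03g120380.3 and Solyc09g083290.3 had at most 19 counts in any fruit library and were not called.

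Exocarp against mesocarp at the same stage addresses how the families differ between skin and flesh. In red ripe fruit, 10 ARF genes were called higher and 3 lower in exocarp, and in mature green fruit 9 were called higher and 1 lower, of 18 tested. Aux/IAA genes were spread over both directions, with 5 called higher and 5 lower in exocarp of red fruit and 4 higher and 7 lower in exocarp of green fruit, of 21 tested. Together 59% of the 39 genes were called in red and 53.8% in green fruit, beside 37.4% (18.1% higher, 19.4% lower) and 36.3% (17.3% higher, 19% lower) of all genes tested. The median log2 fold change of the ARF genes was 0.31 in red and 0.32 in green fruit, that of the Aux/IAA genes was 0 (0.14 over the 16 genes with a fold) in red and -0.14 in green fruit, and that of all genes was 0 at both stages. Leaving out replicate 1 of red ripe mesocarp gave 6 ARF genes higher in red exocarp and 3 Aux/IAA genes lower, and leaving out its replicate 2 gave 5 ARF genes higher. In green fruit the ARF genes called higher in exocarp numbered 6 to 10 over the fits that left out 1 library, and 2 in place of 1 were called lower when any single red ripe library was left out.

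At both stages together, which share no library, 6 ARF genes were higher in exocarp (33.3% of 18) and 0 were lower, against 7.95% and 8.97% of all genes tested. Among the Aux/IAA genes 4 were higher at both stages, 3 lower at both and 1 called in opposite directions. Of the 6 ARF genes, Solyc11g069500.2, Solyc11g013480.3 and Solyc07g016180.3 kept both calls under every alternative run. Solyc11g069500.2 had 115 and 97.5 CPM in red ripe exocarp against 29.6 and 26.7 CPM in red ripe mesocarp (log2 fold change 1.92, SE 0.13, edgeR adjusted p = 1.56e-05), and 211 and 177 CPM in mature green exocarp against 37.6 and 40.4 CPM in mature green mesocarp (2.32, SE 0.13, edgeR adjusted p = 5.51e-06). Solyc07g016180.3 had 35.3 and 30.4 CPM in red ripe exocarp against 7.61 and 5.98 CPM in red ripe mesocarp (log2 fold change 2.27, SE 0.13, edgeR adjusted p = 6.41e-06), and 57 and 54.8 CPM in mature green exocarp against 16.0 and 15.1 CPM in mature green mesocarp (1.84, SE 0.12, edgeR adjusted p = 1.36e-05). For Solyc11g013480.3, whose library values are given above, the log2 fold changes were 2.15 (SE 0.20, edgeR adjusted p = 7.55e-05) in red and 2.19 (SE 0.22, edgeR adjusted p = 0.00012) in green fruit. In each of these contrasts both exocarp libraries exceeded both mesocarp libraries.

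The other 3 ARF genes higher in exocarp at both stages rested on fewer counts or smaller differences. Solyc08g082630.3 had 11 and 44 counts in red ripe exocarp against 0 and 0 counts in red ripe mesocarp, at least 9.47-fold higher (edgeR adjusted p = 0.0105), and 1.57 and 3.08 CPM in mature green exocarp against 0.106 and 0.506 CPM in mature green mesocarp (log2 fold change 2.91, SE 0.86, edgeR adjusted p = 0.0336). Its red call was lost without replicate 1 of red ripe mesocarp (edgeR adjusted p = 0.0559), and its green call without replicate 2 of mature green exocarp (2.34, edgeR adjusted p = 0.0987), replicate 1 of mature green mesocarp (2.19, edgeR adjusted p = 0.155) or either leaf library, while the green value was 4.42 without replicate 2 of mature green mesocarp. Solyc09g007810.4 had log2 fold changes of 0.83 in red and 1.41 in green fruit, the red call lost without replicate 1 of red ripe exocarp (0.55, edgeR adjusted p = 0.0739) or replicate 2 of red ripe mesocarp (0.71, edgeR adjusted p = 0.0858). Solyc08g008380.4 had 0.62 in red and 0.64 in green fruit. Its red call was lost without replicate 2 of red ripe exocarp (0.33, edgeR adjusted p = 0.13) or either red ripe mesocarp library (0.59 and 0.63), and its green call without replicate 2 of mature green exocarp (0.54, edgeR adjusted p = 0.0566) or replicate 1 of mature green mesocarp (0.51, edgeR adjusted p = 0.126).

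The layer contrast of a further group of ARF genes was called at 1 stage. In red fruit Solyc01g096070.3 had 34.4 and 29.7 CPM in exocarp against 3.35 and 2.70 CPM in mesocarp, a log2 fold change of 3.40 (SE 0.13, edgeR adjusted p = 9.34e-07), while in green fruit it was -0.41 (SE 0.14, edgeR adjusted p = 0.0536). Lower in exocarp of red fruit were Solyc05g056040.3 (log2 fold change -1.72), Solyc02g037530.3 (-1.25) and Solyc12g006340.3 (-0.48), whereas Solyc06g075150.3 (0.56), Solyc11g069190.2 (0.27) and Solyc12g042070.3 (0.22) were called higher. The calls of Solyc12g006340.3, Solyc06g075150.3, Solyc11g069190.2 and Solyc12g042070.3 in red fruit were each lost without replicate 2 of red ripe mesocarp. Of the 18 alternatives run, the call of Solyc12g042070.3 was lost in 14, and those of Solyc12g006340.3 and Solyc11g069190.2 in 5 each. In green fruit Solyc05g047460.3 (0.88), Solyc01g103050.3 (0.39) and Solyc03g031970.4 (0.19) were called higher and Solyc03g118290.3 (-0.54) lower in exocarp, and the call of Solyc03g031970.4 was lost in 7 of the 10 fits that left out 1 library. Solyc02g077560.3 was called at neither stage, with log2 fold changes of -0.08 in red and 0.02 in green fruit.

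Among the Aux/IAA genes detected in all 4 fruit tissues, Solyc07g008020.3 separated the layers most at both stages. In red fruit it had 4.89 and 4.24 CPM in exocarp against 0.0957 and 0.124 CPM (4 and 4 counts) in mesocarp (log2 fold change 5.36, SE 0.39, edgeR adjusted p = 2.56e-05). In green fruit it had 5.49 and 8.48 CPM in exocarp against 0.766 and 0.453 CPM in mesocarp (3.51, SE 0.28, edgeR adjusted p = 4.07e-05). Solyc06g084070.3 had 1.12 and 0.956 CPM in red ripe exocarp against 0.0957 and 0 CPM (4 and 0 counts) in red ripe mesocarp, a log2 fold change of 4.20 (SE 0.80, edgeR adjusted p = 0.00383) that came to 8.22 without replicate 1 of red ripe mesocarp and 3.39 without replicate 2. Its green value was 2.31 (SE 0.55, edgeR adjusted p = 0.0118), lost without replicate 2 of mature green mesocarp (1.95, edgeR adjusted p = 0.0933). Solyc08g021820.3 (2.06 in red, 1.05 in green fruit) and Solyc09g064530.3 (0.91 and 0.68) completed the 4 higher at both stages, and the green call of Solyc08g021820.3 was lost without either mature green exocarp library or replicate 1 of mature green mesocarp (0.77, edgeR adjusted p = 0.155).

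Solyc09g065850.4, Solyc03g121060.4 and Solyc06g066020.3 were lower in exocarp at both stages. Solyc09g065850.4, with the values given above, had log2 fold changes of -1.66 (SE 0.10, edgeR adjusted p = 7.56e-06) in red and -0.77 (SE 0.10, edgeR adjusted p = 0.000456) in green fruit. Solyc03g121060.4 had 0.559 and 0.984 CPM in red ripe exocarp against 1.99 and 1.77 CPM in red ripe mesocarp (log2 fold change -1.28, SE 0.36, edgeR adjusted p = 0.0271), a call lost without replicate 1 of red ripe exocarp (-0.94, edgeR adjusted p = 0.122), either red ripe mesocarp library (-1.19 and -1.36) or either leaf library. In green fruit it had 0 and 0 counts in exocarp against 111 and 185 counts in mesocarp, at least 55.8-fold lower (edgeR adjusted p = 5.95e-05). Solyc06g066020.3 stayed under 1 CPM in all libraries, with 2 and 2 counts in red ripe exocarp against 29 and 23 in red ripe mesocarp, and 0 and 0 counts in mature green exocarp against 8 and 15 in mature green mesocarp.

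Solyc01g097290.4 was the Aux/IAA gene called in opposite directions between the stages. In red fruit it had 1.03 and 1.46 CPM in exocarp against 0.287 and 0 CPM in mesocarp, a log2 fold change of 2.93 (SE 0.68, edgeR adjusted p = 0.00984). In green fruit it had 10.2 and 6.31 CPM in exocarp against 41.0 and 44.5 CPM in mesocarp, a log2 fold change of -2.37 (SE 0.29, edgeR adjusted p = 0.000424). The red value was 8.49 without replicate 1 and 2.10 without replicate 2 of red ripe mesocarp, and the call was lost without replicate 2 of red ripe exocarp (2.65, edgeR adjusted p = 0.054). Called in red fruit alone, both lower in exocarp, were Solyc06g053840.3 (-1.65) and Solyc12g007230.2 (-0.70), and called in green fruit alone, also lower, were Solyc06g008590.3 (-1.54), Solyc09g090910.3 (-0.92) and Solyc03g120390.3 (-0.55). The call of Solyc12g007230.2 was lost without replicate 1 of red ripe mesocarp (-0.51, edgeR adjusted p = 0.0538), that of Solyc09g090910.3 without replicate 1 of mature green mesocarp (-0.78, edgeR adjusted p = 0.0595), and that of Solyc03g120390.3 without replicate 2 of mature green exocarp (-0.36, edgeR adjusted p = 0.0826) or either mature green mesocarp library (-0.54 and -0.56). The other Aux/IAA genes passed at neither stage, among them Solyc04g076850.3 with -0.05 in red and 0.19 in green fruit.

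**Figure D4:**
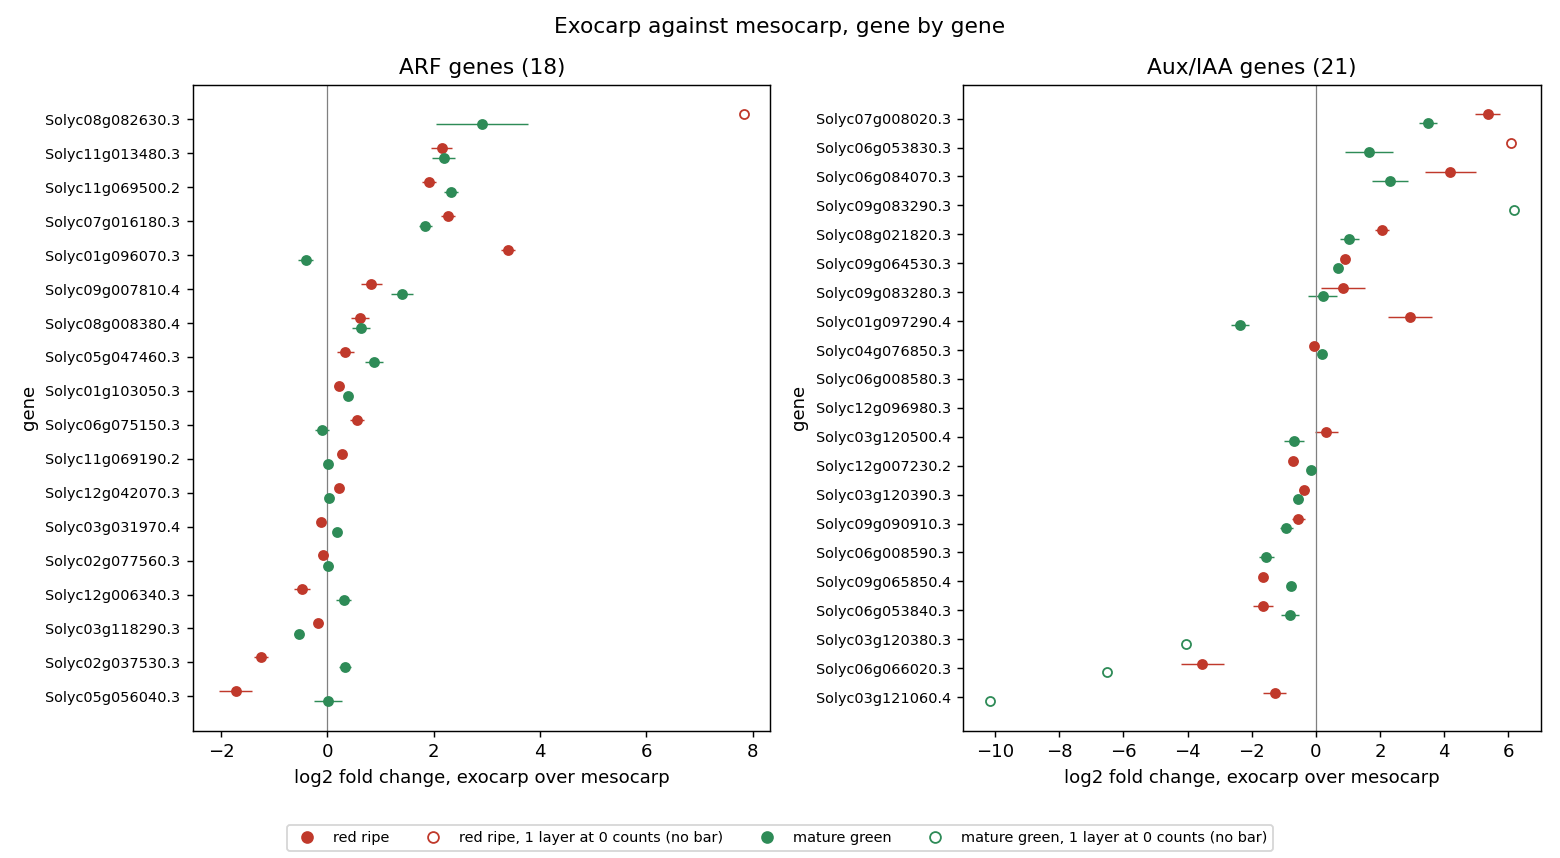
Log2 fold change of exocarp over mesocarp (horizontal axis) for each ARF gene (left) and Aux/IAA gene (right) in red ripe (red) and mature green fruit (green), with bars of 1 SE; open symbols had 0 counts in 1 layer, so their position is not a bound, and genes with 0 counts in both layers have no symbol. Of the 18 ARF genes, 6 were called higher in exocarp at both stages and 0 lower at both, while Aux/IAA genes lie on both sides. Solyc01g096070.3 and Solyc01g097290.4 show the stages far apart.

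Whether ripening changed a gene differently in skin and flesh was tested as the exocarp change minus the mesocarp change. Of the 39 genes, 9 were called (23.1%), 4 with a positive and 5 with a negative difference, beside 21.3% of all genes tested (10.9% positive, 10.5% negative). They were 6 ARF genes, 2 positive and 4 negative, and 3 Aux/IAA genes, 2 positive and 1 negative. Solyc03g121060.4 had the largest fitted difference of 8.89 (SE 1.03, edgeR adjusted p = 0.00122), which has no fixed size because the gene had 0 counts in mature green exocarp. Solyc01g097290.4 followed with 5.30 (SE 0.71, edgeR adjusted p = 0.00143), with ripening changes of -2.72 in exocarp and -8.02 in mesocarp, and its difference was 10.86 without replicate 1 and 4.48 without replicate 2 of red ripe mesocarp. On the negative side stood Solyc05g056040.3 with -1.73 (SE 0.40, edgeR adjusted p = 0.018) and Solyc02g037530.3 with -1.58 (SE 0.17, edgeR adjusted p = 0.00059), ARF genes that fell more in exocarp than in mesocarp. The call of Solyc05g056040.3 was lost without replicate 1 of red ripe exocarp (-1.64, edgeR adjusted p = 0.0607), replicate 2 of red ripe mesocarp (-1.56, edgeR adjusted p = 0.0677) or replicate 1 of mature green mesocarp (-1.62, edgeR adjusted p = 0.0721). The number of ARF genes called was 2 without replicate 1 of mature green mesocarp or replicate 2 of red ripe mesocarp and 3 without replicate 2 of red ripe exocarp or replicate 1 of red ripe mesocarp, and the number of Aux/IAA genes was 5 without either mature green exocarp library.

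Fruit tissue was compared with leaf as the vegetative organ, in 4 comparisons that share the 2 leaf libraries. ARF genes were called higher and lower in the numbers 7 and 9 for red ripe exocarp, 9 and 5 for mature green exocarp, 5 and 9 for red ripe mesocarp, and 5 and 7 for mature green mesocarp. For the Aux/IAA genes the numbers were 4 higher and 14 lower for red ripe exocarp and 6 and 13 for mature green exocarp. They were 4 and 15 for red ripe mesocarp, and 5 and 11 for mature green mesocarp. These counts include Solyc12g096980.3, Solyc06g008580.3, Solyc03g120380.3 and Solyc09g083290.3 as lower in all 4 comparisons. Those genes passed the filter on low counts through leaf alone, so their direction was fixed beforehand. They also enter the shares called and the Aux/IAA medians below, and neither was computed without them. The excess of lower Aux/IAA calls and the size of those medians are therefore partly set by the filter. All genes tested went through the same filter. The share of the 39 genes called was 87.2% in red ripe exocarp, 84.6% in mature green exocarp, 84.6% in red ripe mesocarp and 71.8% in mature green mesocarp, beside 75.9% (35.7% higher, 40.2% lower), 71% (34.6% higher, 36.4% lower), 76.6% (35% higher, 41.6% lower) and 68.5% (32.7% higher, 35.8% lower) of all genes tested. The median Aux/IAA log2 fold change against leaf was -3.25 in red ripe exocarp, -1.29 in mature green exocarp, -3.70 in red ripe mesocarp and -0.91 in mature green mesocarp, where all genes had medians of -0.11, -0.02, -0.18 and -0.07. With genes at 0 counts set to their bound, the medians were -3.00 for red ripe exocarp and -3.06 for red ripe mesocarp, and the same as before in green fruit. The ARF medians were -0.24, 0.38, -0.47 and -0.18 in the same tissue order, and in mature green mesocarp the ARF balance turned to 8 higher and 5 lower with scaling by total counts.

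Solyc09g083290.3 separated fruit and leaf most, but it passed the filter on low counts through leaf alone. Its direction was thus fixed beforehand, and its values are given as description. It had 0.0461 and 0.454 CPM (2 and 19 counts) in mature green exocarp and 0 counts in the other 6 fruit libraries, against 104 and 106 CPM in leaf. That is at least 1210-fold lower in red ripe exocarp, at least 1270-fold lower in red ripe mesocarp and at least 1310-fold lower in mature green mesocarp than in leaf. In mature green exocarp the log2 fold change was -8.71 (SE 0.52), which came to -7.83 without replicate 1 and -11.02 without replicate 2 of that tissue. Solyc06g053830.3 had 0.471 and 0 CPM in red ripe exocarp, 0.899 and 0.693 CPM in mature green exocarp, 0 and 0 CPM in red ripe mesocarp and 0.238 and 0.267 CPM in mature green mesocarp, against 36.1 and 40.6 CPM in leaf, which is at least 466-fold lower in red ripe mesocarp. Solyc06g008580.3 and Solyc12g096980.3 had counts in leaf alone, 66 and 91 counts for the first and 24 and 18 for the second. The calls of Solyc12g096980.3 against leaf were lost without either leaf library.

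Other Aux/IAA genes called lower in all 4 fruit tissues than in leaf were Solyc07g008020.3, Solyc01g097290.4, Solyc09g083280.3, Solyc03g121060.4 and Solyc03g120380.3. Solyc07g008020.3, at 68.4 and 74.0 CPM in leaf, had log2 fold changes of -3.96 in red ripe exocarp, -3.35 in mature green exocarp, -9.32 in red ripe mesocarp and -6.86 in mature green mesocarp. Solyc01g097290.4, at 124 and 127 CPM in leaf, had -6.65, -3.93, -9.58 and -1.55 in that order of tissues, the red mesocarp value being -15.13 without its replicate 1 and -8.71 without its replicate 2. Its green mesocarp call was lost with limma on log2(FPKM + 0.1) (-1.12, limma adjusted p = 0.0697). The calls of Solyc03g120380.3, with 65 and 24 counts in leaf, were lost in each of the 4 comparisons without leaf replicate 1. Called higher in all 4 fruit tissues were Solyc04g076850.3 (log2 fold changes 0.77 to 1.04) and Solyc03g120390.3 (1.57 to 2.14). Red fruit alone exceeded leaf for Solyc08g021820.3, with 4.41 (SE 0.24, edgeR adjusted p = 5.72e-07) in exocarp and 2.34 (SE 0.23, edgeR adjusted p = 2.26e-05) in mesocarp, against -0.84 and -1.89 in green fruit. Its mature green exocarp call was lost without either library of that tissue or leaf replicate 1. Solyc06g008590.3, at 36 and 32 counts in leaf, was at least 12.9-fold lower in red ripe exocarp and at least 13.6-fold lower in red ripe mesocarp, but higher in mature green exocarp (1.91) and mature green mesocarp (3.45).

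Among the ARF genes, Solyc01g096070.3 and Solyc08g082630.3 had the largest fitted contrasts with leaf. Solyc01g096070.3 had 34.4 and 29.7 CPM in red ripe exocarp, 2.14 and 2.17 CPM in mature green exocarp, 3.35 and 2.70 CPM in red ripe mesocarp and 3.07 and 2.69 CPM in mature green mesocarp, against 121 and 126 CPM in leaf. The log2 fold changes were -1.94, -5.83, -5.34 and -5.42 in the same order, all with edgeR adjusted p of at most 7.83e-07. The red ripe exocarp was thus the fruit tissue nearest to leaf for this gene. Solyc08g082630.3, at 0 and 0 counts in red ripe mesocarp against 35 and 43 in leaf, was at least 15.6-fold lower there and was not called in the other fruit tissues. Higher than leaf in all 4 fruit tissues were Solyc12g006340.3 (log2 fold changes 0.89 to 2.38), Solyc06g075150.3 (1.37 to 1.93) and Solyc02g077560.3 (0.69 to 0.93), while Solyc01g103050.3 (-2.88 to -1.02), Solyc09g007810.4 (-2.56 to -0.65) and Solyc12g042070.3 (-0.55 to -0.34) were called lower in all 4. The mature green calls of Solyc12g042070.3 were lost with total counts (-0.20 in exocarp, edgeR adjusted p = 0.0542, and -0.11 in mesocarp, edgeR adjusted p = 0.261) and with limma on FPKM. The red ripe exocarp call of Solyc09g007810.4 was lost without replicate 2 of that tissue (-0.38, edgeR adjusted p = 0.12) or leaf replicate 2 (-0.55, edgeR adjusted p = 0.0898).

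Of the Aux/IAA identifiers, 8 form 4 pairs of consecutive numbers, and their levels are set side by side here. In FPKM, Solyc03g120390.3 had 49.6 to 96.3 in fruit and 18.0 and 14.4 in leaf, while its neighbour Solyc03g120380.3 was at 0 in 7 of 8 fruit libraries and had 1.75 and 0.679 in leaf. Solyc06g053840.3 ranged from 13.3 to 79.7 FPKM in fruit and had 78.4 and 79.2 in leaf, while Solyc06g053830.3 was at most 0.843 FPKM in fruit and had 26.9 and 30.4 in leaf. In scaled CPM, Solyc06g053840.3 stood at 106 and 107 in leaf against 71.5 and 80.4 in mature green mesocarp. Solyc09g083280.3 stood between 0.0909 and 1.43 FPKM in the fruit libraries and at 34.1 and 34.5 in leaf, while Solyc09g083290.3 was at 0 in 6 of 8 fruit libraries and had 78.5 and 80.1 in leaf. Solyc06g008590.3 had 3.92 and 5.03 FPKM in mature green exocarp and 13.7 and 14.7 in mature green mesocarp, against 0.986 and 0.915 in leaf, and Solyc06g008580.3 was detected in leaf alone at 2.11 and 3.07 FPKM. How reads that fit more than one gene were counted is not given in the sources used here, so values of close copies within a pair are uncertain.

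**Figure D5:**
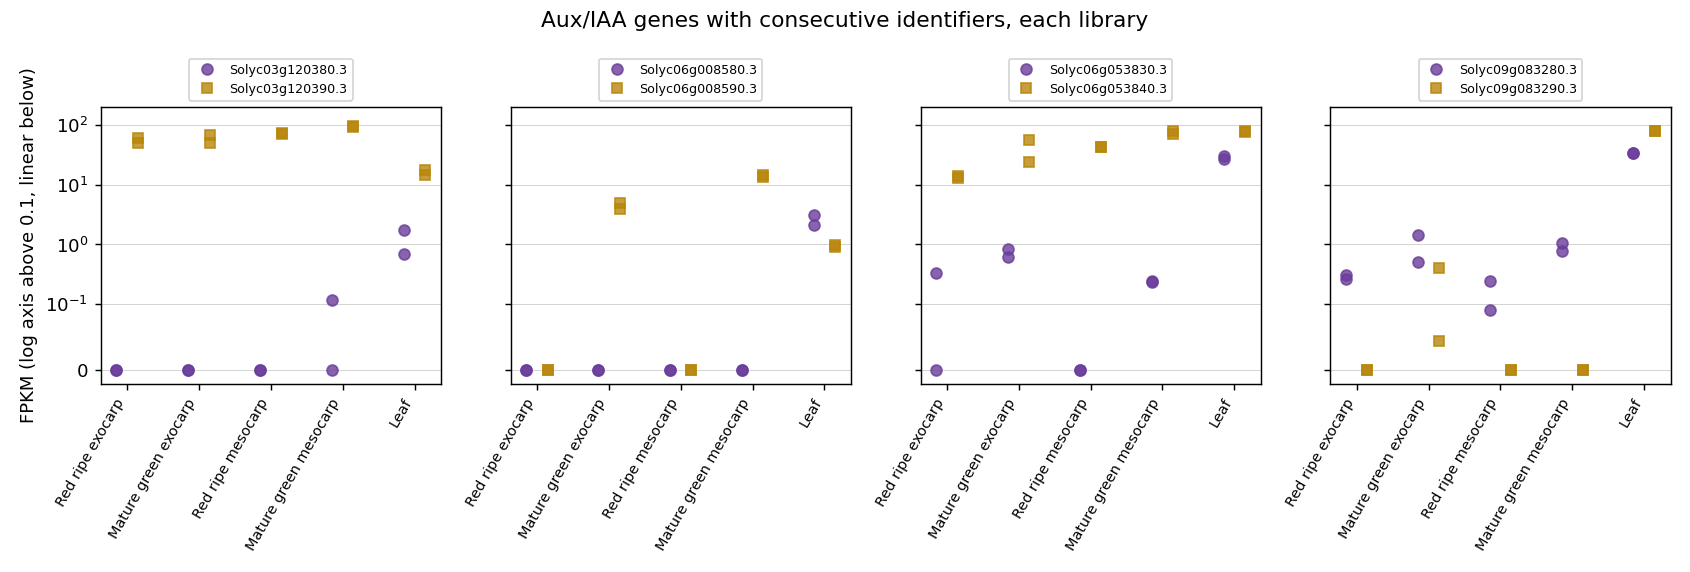
FPKM of the 4 pairs of Aux/IAA genes with consecutive identifiers in each library of the 5 tissues (vertical axis logarithmic above 0.1 FPKM and linear below). In each pair 1 gene is at or near 0 in at least 1 fruit tissue. Both genes of the Solyc09g083280 pair and of the Solyc06g053830 pair have their highest mean in leaf, though Solyc06g053840.3 overlaps there with mature green mesocarp.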

How the data were processed

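Tomato exocarp and mesocarp of red ripe and mature green fruit and pooled leaf were sequenced as poly(A) RNA, with 2 libraries for each of 5 tissues. Sample labels gave the tissue and the replicate number, and were followed where the design text names green exocarp 2 times. Deposited were raw read counts by gene, per the file headers, and FPKM, which the authors derived with a correction for transcript length and sequencing depth. HISAT2 is named in the submitters' processing notes without a version. The counting tool, genome build, annotation, strand setting and treatment of multiply mapped reads are not given in the sources used here. FPKM depends on the transcript lengths used. For bounds, a floor of 3 counts per library was chosen, at total counts of 30945619 to 45637676, and some genes had fewer counts than that.

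Counts were filtered with filterByExpr by tissue, scaled by TMM (factors 0.881 to 1.21) and fitted in edgeR 4.0.16 (R 4.3.3) with 1 coefficient per tissue and no block. The biological coefficient of variation was 0.153, with 5 residual degrees of freedom. Quasi-likelihood F tests were adjusted by Benjamini-Hochberg over 22801 genes and called under 0.05. Each standard error was the absolute log2 fold change over the square root of F. The p-values measure the spread between libraries. An exact permutation test of 2 against 2 libraries cannot pass that threshold, so none was run.

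The members and lists were chosen with earlier results of these data known. Named with library values were the 4 members of each family with the highest mean FPKM, the 3 of each family with the largest called change and at least 1 CPM in each fruit comparison, 2 of each against leaf, 2 in each direction for the difference of ripening changes, and consecutive identifiers (26 genes in all). Other members were named to account for the list. None of the identifiers matched the RefSeq table at hand, so symbols, sequences and other auxin pathway genes are not reported here. Alternatives were DESeq2 1.42.0, median-ratio or total-count scaling, no filter, compared tissues alone, the replicate number as a block, limma 3.58.1 on log2(FPKM + 1) and log2(FPKM + 0.1) with FPKM filtered at 0.1, each library left out, family sums without the top member, and, chosen after seeing the data, FPKM divided by the TMM factor. A tissue left with 1 library was assumed to vary like the others.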

Additional observations from a re-analysis of the deposited data

Results flagged for a closer look

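For 9 genes the ripening change in exocarp differed from that in mesocarp by the edgeR test of the difference itself, given here as exocarp minus mesocarp on the log2 scale, and what lies behind any of them was not tested. Among the ARF genes, the difference was 3.81 for Solyc01g096070.3 (3.89 in exocarp, 0.08 in mesocarp), -1.73 for Solyc05g056040.3 (-3.32 and -1.59), -1.58 for Solyc02g037530.3 (-3.03 and -1.45), -0.79 for Solyc12g006340.3 (-1.49 and -0.70), 0.66 for Solyc06g075150.3 (0.11 and -0.55) and -0.31 for Solyc03g031970.4 (-0.34 and -0.03). Among the Aux/IAA genes it was 8.89 for Solyc03g121060.4, whose mature green exocarp libraries had 0 counts, 5.30 for Solyc01g097290.4 (-2.72 and -8.02) and -0.89 for Solyc09g065850.4 (1.34 and 2.22).

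Of the 10 fits that left out 1 library, the difference was not called in 9 for Solyc06g075150.3, in 7 for Solyc03g031970.4, in 4 for Solyc12g006340.3 and in 3 for Solyc05g056040.3, and it was called in each of them for the other 5 genes.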

How the results depend on the processing

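Each comparison was recomputed under 18 alternatives, and 1 call reversed: Solyc09g064530.3 in mature green mesocarp against leaf (-0.33) was 0.09 with total counts, 0.09 with limma on log2(FPKM + 1) and 0.11 on log2(FPKM + 0.1). Leaving out 1 library, the genes called numbered 21 to 29 for red ripe against mature green exocarp, 20 to 28 for red ripe against mature green mesocarp, 16 to 24 between layers in red and 15 to 24 in green fruit, and 5 to 12 for the difference of ripening changes (9 with all libraries, 5 without replicate 1 of mature green mesocarp). Against leaf they numbered 30 to 35 in red ripe exocarp, 27 to 33 in mature green exocarp, 29 to 34 in red ripe mesocarp and 24 to 29 in mature green mesocarp. Total-count scaling shifted the median of all genes by -0.28 in the exocarp and -0.41 in the mesocarp ripening comparison, and gave 14 genes higher and 15 lower in mature green mesocarp than in leaf, in place of 10 and 18. Deviations of replicate 1 from the tissue mean were nearly uncorrelated between tissues (correlations of -0.0475 to 0.0645 over 10 tissue pairs). With 1 such deviation per tissue, these values cannot settle whether samples of the same number were paired. The sources used here do not say. With the replicate block, 25 genes were called for ripening in exocarp, 25 in mesocarp, 22 between layers in red and 21 in green fruit, 9 for the difference, and 33, 33, 34 and 27 against leaf in red ripe exocarp, mature green exocarp, red ripe mesocarp and mature green mesocarp. Of 231 calls, 224 were kept and 7 lost.

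Without its top member, the ARF sum was 247.8 FPKM in red ripe exocarp, 459.6 in mature green exocarp, 179.5 in red ripe mesocarp, 362.9 in mature green mesocarp and 324.3 in leaf, and the Aux/IAA sum 195.4, 223.1, 331.1, 381.8 and 497.5 in that order. Divided by the TMM factor, a choice made after seeing the data, the ARF sums were 467.5, 447.7, 402.3, 350.6 and 495.3, and the Aux/IAA sums 349.7, 357.8, 490.9, 454.3 and 624.7. In scaled CPM in place of FPKM, the highest tissue was red ripe exocarp for 3 ARF genes, red ripe mesocarp for 2 and mature green mesocarp for 0, and mature green mesocarp for 3 Aux/IAA genes, while leaf was highest for 6 ARF genes in place of 4 and for 11 Aux/IAA genes in place of 10. Mature green exocarp was highest for 7 ARF genes in place of 8. Calls with a tissue near 3 counts rest on few reads.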
